A study of Mus musculus with 10 samples.

Results

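The phosphofructokinase group comprised 8 listed genes of the control point of glycolysis, the 3 phosphofructokinase-1 genes Pfkl, Pfkm and Pfkp, the bifunctional enzyme genes Pfkfb1, Pfkfb2, Pfkfb3 and Pfkfb4, and the opposing phosphatase gene Fbp1. A member was taken where a row of the array carried that symbol alone, and 6 of the 8 had such a row, each exactly 1, among 30142 genes with a row of their own. Of these 6, 5 had a mean signal above the floor used for testing (log2 5.24, the median of all rows' means) and belonged to the 17800 genes tested. Fbp1 lay below the floor, the row that carries Pfkfb2 also names the pseudogene C4bp-ps1 and was not used, and Pfkfb1 was not analysed here. The expression data came from the established mouse mammary carcinoma cell line 4T1, grown for 5 days in collagen gels of high density (HD, 3.5 mg/mL, 5 arrays) or low density (LD, 2 mg/mL, 5 arrays). Both groups started from 50000 cells and shared medium with 10% serum, and the labels name no other treatment. RNA was measured on Affymetrix mouse transcriptome arrays, 1 per sample, and all signals are log2 values summarised by the RMA method. Whether the 5 samples within HD or LD were separate cultures is not stated in the labels, so the p-values reflect variation among samples that could be technical.

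Phosphofructokinase-1 adds a phosphate to fructose 6-phosphate, the step that commits sugar to glycolysis, and works as a tetramer of the liver (Pfkl), muscle (Pfkm) and platelet (Pfkp) type subunits, which differ in their sensitivity to inhibitors such as ATP and citrate. Its strongest activator is fructose 2,6-bisphosphate, which is made and removed by the Pfkfb enzymes, each of which joins a kinase and a phosphatase domain in a single chain. Pfkfb3 has the highest kinase to phosphatase activity among them and, like Pfkfb4, is known in several cell types as a target of the hypoxia-inducible factor HIF-1. Fbp1 runs the opposite reaction in gluconeogenesis.

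The arrays carried an epithelial profile in both groups. All 6 markers of mammary epithelium (Epcam, Krt8, Krt18, Krt19, Cdh1 and Cldn7) lay above the floor, with a mean signal of 10.2 to 10.3 across HD arrays and 10.5 to 10.6 across LD arrays. Of these 6 markers, 4 were called lower in HD and none was higher, with changes from -0.76 to 0.03. Among all genes tested, 19.5% were called lower. Krt19 (-0.76) and Epcam (-0.60) changed most, and the called changes of Krt18 (-0.13) and Cdh1 (-0.105) were small. Fibroblast, leukocyte and endothelial markers had mean signals of 5.06 to 5.29, 4.46 to 4.60 and 4.77 to 4.86 in HD and of 5.00 to 5.14, 4.40 to 4.48 and 4.67 to 4.80 in LD, with Ptprc, Pecam1 and Dcn below the floor. Of these 16 markers with a row, 6 lay above the floor, and all 6 had positive changes (0.09 to 0.17), opposite to the called epithelial markers. Col3a1 (0.15), Cd3e (0.16) and Tie1 (0.17) were called higher in HD (limma adjusted p = 0.033, 0.022 and 0.0072), and Col1a1, Col1a2 and Vwf were not called. All 6 were called higher after the control-row scaling described next. Among all genes tested, 31.4% were called higher as deposited and 49.4% after that scaling. The part of these marker shifts in the results for the phosphofructokinase genes was not tested. Rows named as negative controls had a median of 5.26 to 5.58 across HD arrays and 5.61 to 5.75 across LD arrays, whereas the array's background rows were higher in HD (3.58 to 3.72, against 3.40 to 3.54 in LD). Mean HD signals of Cd3e and Vwf (both 5.45) lay within the range of the HD negative control medians. Their LD means (5.29 and 5.35) lay below the LD medians. The LD means of Tie1 (5.63) and Col3a1 (5.65) lay within the LD medians, and their HD means (both 5.80) lay above the HD medians. Positive control rows had a median of 9.24 to 9.35 across HD arrays and 9.20 to 9.23 across LD arrays. Because the control rows moved with the groups, the fits were repeated after each array had been rescaled linearly to common medians of its negative and positive control rows (control-row scaling).

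Expression of all 3 phosphofructokinase-1 genes and of Pfkfb3 was lower in HD, whereas Pfkfb4 did not pass the test. In all, 4 of the 5 members tested were called lower and 0 higher (limma, Benjamini-Hochberg adjusted p under 0.05 over all genes), also with 0 higher at an unadjusted p under 0.05. Among all genes tested, 19.5% were called lower. The same 4 members had all 5 HD values below all 5 LD values, which held for 15.1% of all genes. A called decrease of at least 1.5-fold was found for 2 of the 5, Pfkp and Pfkl, and for 1.56% of all genes. The median log2 change of the 5 members was -0.38, and that of all genes tested was 0.055. In RNA from whole gels, fewer cells that express a gene and less RNA per cell cannot be told apart.

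Pfkp, the platelet-type subunit, showed the largest difference of the group. Its signal was 7.85, 7.88, 7.79, 7.84 and 7.80 in HD replicates 1 to 5, against 9.04, 8.91, 8.83, 8.83 and 8.84 in LD replicates 1 to 5. The lowest LD array stood 0.95 log2 units above the highest HD array. Means were 7.83 ± 0.036 in HD and 8.89 ± 0.090 in LD (SD, n = 5 each). This corresponds to a 2.09-fold lower signal in HD (95% interval 1.95 to 2.23, log2 change -1.06 ± 0.044 SE, limma adjusted p = 1.7e-09). Only 52 of the 17800 genes tested had a more negative change. Replicate 1 was the highest LD array, and without it the change was -1.02.

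Pfkl, the liver-type subunit, was lower in HD by a smaller amount. It measured 9.46, 9.62, 9.59, 9.56 and 9.44 in the HD arrays, against 10.22, 10.17, 10.12, 10.15 and 10.12 in the LD arrays. The groups were separated by 0.49 log2 units. The fold was 1.53 lower in HD (95% interval 1.44 to 1.63, log2 change -0.62 ± 0.042 SE, limma adjusted p = 1.3e-07). Pfkm, the muscle-type subunit, measured 7.81, 7.89, 7.76, 7.76 and 7.65 in HD, against 8.08, 8.14, 8.04, 8.06 and 8.07 in LD. Here the gap between the groups narrowed to 0.16. The signal of Pfkm was 1.24-fold lower in HD (95% interval 1.16 to 1.32, log2 change -0.31 ± 0.044 SE, limma adjusted p = 5.9e-05). The HD values of Pfkl and Pfkm were spread more widely than their LD values, with SDs of 0.079 and 0.087 in HD and 0.043 and 0.039 in LD.

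**Figure D1:**
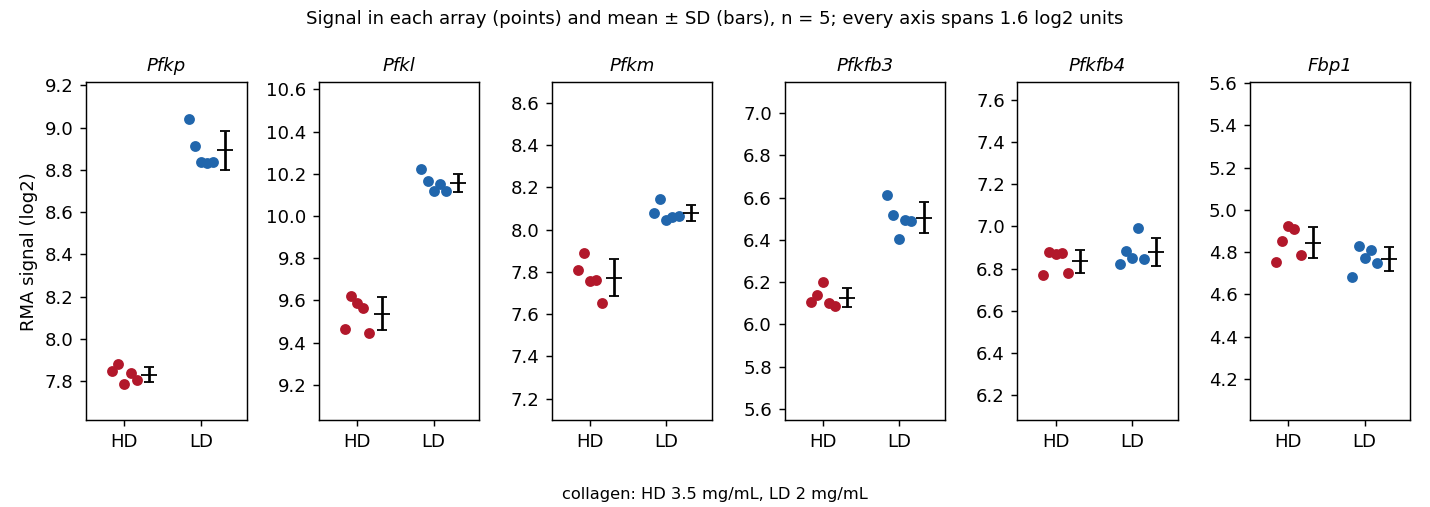
Log2 RMA signal of the 6 members with a row of their own in each HD (red) and LD (blue) array, with mean ± SD (n = 5) beside the points; the panels have different starting values but the same span. HD lies wholly below LD for Pfkp, Pfkl, Pfkm and Pfkfb3, and the groups overlap for Pfkfb4 and for Fbp1, whose signal is below the floor of 5.24.

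The 3 subunit genes did not move by the same amount. The difference between 2 genes within each array was compared between HD and LD. This removes shifts of equal log2 size across a whole array, but not shifts that depend on the signal level. Pfkp fell by 0.44 ± 0.041 (SE) log2 units more than Pfkl and by 0.76 ± 0.047 more than Pfkm, and Pfkl fell by 0.31 ± 0.037 more than Pfkm. In each of these pairs the 5 HD arrays lay wholly below the 5 LD arrays (two-sided exact permutation p = 0.0079, Benjamini-Hochberg adjusted p = 0.0079 over the 4 pairs run, the lowest p this design allows). The order of the decrease among subunits was thus Pfkp, Pfkl, Pfkm, and each step was larger than the spread between arrays. With control-row scaling the step between Pfkp and Pfkl narrowed to 0.32 and the step between Pfkl and Pfkm widened to 0.48, with the same adjusted p. These are differences in change, since signals of different rows cannot be set against each other as amounts of RNA.

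**Figure D2:**
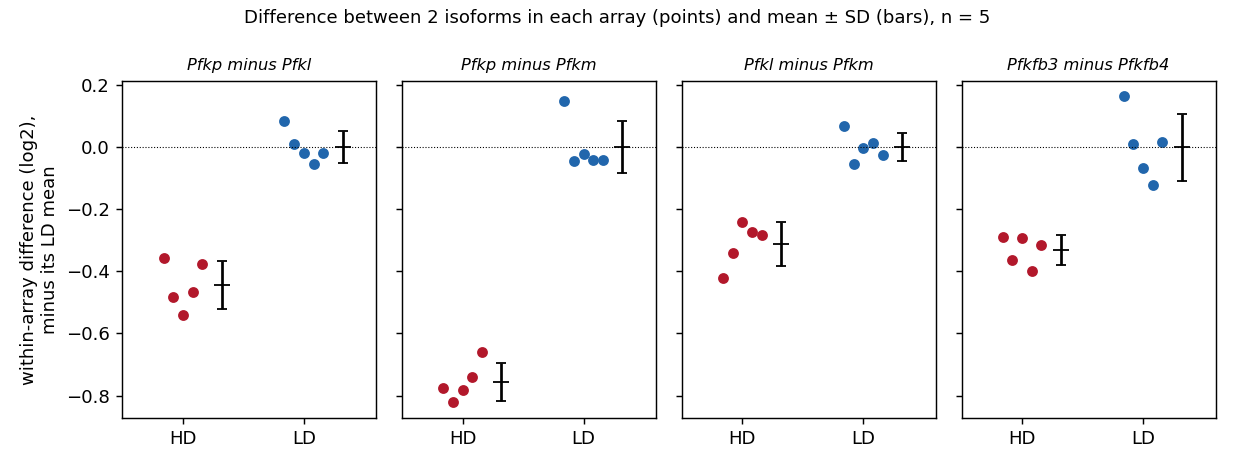
Within-array difference of log2 signal between 2 isoforms in each HD (red) and LD (blue) array, shifted so that the LD mean is 0, with mean ± SD (n = 5). HD arrays lie below LD arrays in all 4 pairs, at a mean of -0.44, -0.76, -0.31 and -0.33 from left to right.

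The sequences upstream of the 2 subunit genes that changed most are shown because each has a single start in the RefSeq table. They are the 250 bases before the start on the gene's own strand, from RefSeq (GRCm38.p6), at chr13:6648772-6649021 (minus strand) for Pfkp and chr10:78009808-78010057 (minus strand) for Pfkl. Capitals mark ACGTG or GCGTG on either strand, the core letters of the site bound by hypoxia-inducible factors.
Pfkp: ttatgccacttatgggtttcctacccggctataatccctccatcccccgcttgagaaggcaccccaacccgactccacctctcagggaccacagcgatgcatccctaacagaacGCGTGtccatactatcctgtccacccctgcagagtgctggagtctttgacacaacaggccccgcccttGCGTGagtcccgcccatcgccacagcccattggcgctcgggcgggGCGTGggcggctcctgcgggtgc
Pfkl: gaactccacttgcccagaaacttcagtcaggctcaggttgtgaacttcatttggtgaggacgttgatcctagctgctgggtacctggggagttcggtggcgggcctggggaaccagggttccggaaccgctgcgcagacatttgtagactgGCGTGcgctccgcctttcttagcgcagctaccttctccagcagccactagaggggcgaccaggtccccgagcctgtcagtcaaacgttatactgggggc
The Pfkp window held 3 matches, all GCGTG, beginning at positions -136, -68 and -23 relative to the start, and the Pfkl window held 1, also GCGTG, at position -99. Across 32851 windows of the same length, 38.6% held at least 1 match (16.6% ACGTG and 28.2% GCGTG). Pfkm has 4 annotated starts, of which 3 had a match in their window, and 2 of these windows overlap and share a GCGTG site. Such short matches are a description of the letters and show no binding.

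Among the bifunctional enzymes, Pfkfb3 was lower in HD. It measured 6.10, 6.14, 6.20, 6.10 and 6.09 in HD, against 6.61, 6.52, 6.41, 6.49 and 6.49 in LD. The groups did not overlap, with 0.21 log2 units between them, and LD replicate 1 was again the highest array. The signal was 1.30-fold lower in HD (95% interval 1.22 to 1.38, log2 change -0.38 ± 0.042 SE, limma adjusted p = 6.3e-06). Pfkfb3 was the dimmest of the called members. On average it stood 0.71 above the median negative control row in HD and 0.84 above it in LD, and 67.0% and 69.8% of the negative control rows were dimmer. With control-row scaling its change shrank to -0.20 (limma adjusted p = 0.013), so its direction held and its size depended on the scaling.

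Pfkfb4, whose kinase and phosphatase activities are closer to each other than those of Pfkfb3, measured 6.77, 6.88, 6.87, 6.87 and 6.78 in HD, against 6.82, 6.89, 6.85, 6.99 and 6.85 in LD. The groups overlapped. The log2 change was -0.046 ± 0.041 (SE), with a 95% interval from -0.14 to 0.04 (limma adjusted p = 0.37). The interval leaves room for a decrease of up to 1.10-fold on the deposited scale, and the sign turned under other scalings (0.045 after quantile normalization and 0.091 after control-row scaling, neither called). The Pfkfb3 and Pfkfb4 changes differed from each other by -0.33 ± 0.053 (SE), with all 5 HD arrays below all 5 LD arrays (two-sided exact permutation p = 0.0079, adjusted p = 0.0079 over the 4 pairs). That difference was -0.29 with control-row scaling, which left the adjusted p the same.

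**Figure D3:**
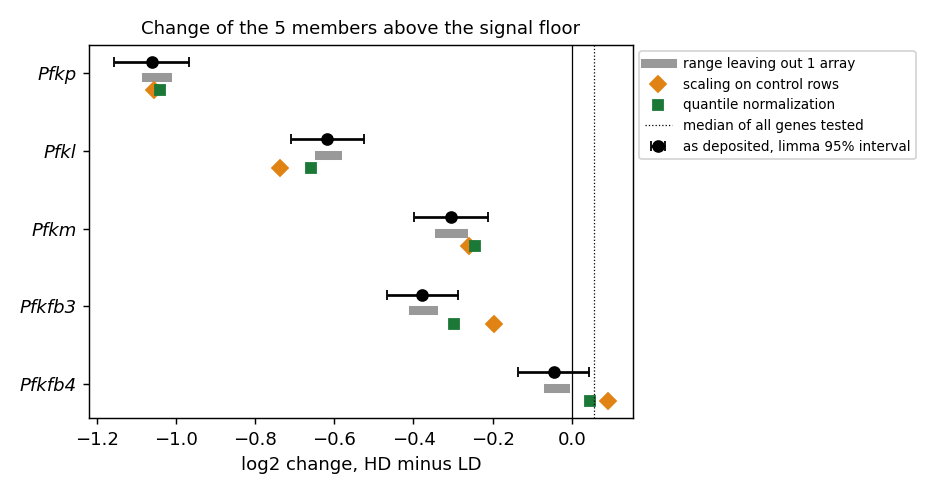
Log2 change (HD minus LD) of the 5 members above the floor, with the limma 95% interval (black), the range when 1 array at a time is left out (grey), and the values after scaling on control rows (orange) and quantile normalization (green). Pfkp, Pfkl, Pfkm and Pfkfb3 stay below 0 in each of these, and Pfkfb4 lies on both sides of 0.

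The upstream windows of Pfkfb3 and Pfkfb4 are shown because this pair of related genes differed in its change. Pfkfb3 has 2 annotated starts, with windows at chr2:11553930-11554179 and chr2:11502091-11502340 (both minus strand). Pfkfb4 has 1, with its window at chr9:108991652-108991901 (plus strand). Source, length and capitals are as for Pfkp and Pfkl.
Pfkfb3, first start: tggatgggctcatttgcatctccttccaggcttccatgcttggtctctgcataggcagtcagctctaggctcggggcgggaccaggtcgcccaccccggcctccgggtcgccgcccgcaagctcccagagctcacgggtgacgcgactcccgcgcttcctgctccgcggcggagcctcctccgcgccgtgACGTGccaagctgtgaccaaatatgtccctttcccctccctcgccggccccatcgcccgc
Pfkfb3, second start: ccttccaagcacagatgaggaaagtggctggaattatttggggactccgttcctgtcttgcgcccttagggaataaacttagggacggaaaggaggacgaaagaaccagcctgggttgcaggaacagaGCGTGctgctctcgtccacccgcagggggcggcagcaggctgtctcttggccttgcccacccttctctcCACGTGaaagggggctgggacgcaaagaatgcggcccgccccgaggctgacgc
Pfkfb4: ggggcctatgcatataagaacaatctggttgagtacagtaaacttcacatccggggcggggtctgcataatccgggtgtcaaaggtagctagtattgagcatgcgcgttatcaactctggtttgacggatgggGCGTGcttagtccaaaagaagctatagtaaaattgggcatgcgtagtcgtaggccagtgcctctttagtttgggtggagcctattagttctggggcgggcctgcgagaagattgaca
The first Pfkfb3 window held 1 ACGTG, at position -60. The second held 1 GCGTG and the palindrome CACGTG, which counts as a match on each strand. The Pfkfb4 window held 1 GCGTG, at position -117. A match was therefore present upstream both of Pfkfb3, which fell, and of Pfkfb4, which did not pass the test. Of the 17 windows of the 8 members, 12 held a match, beside 38.6% of all windows. Some of the 17 overlap, and 2 Pfkm windows share a site, so they are not independent. Which Pfkfb3 start was in use cannot be read from a single row per gene.

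Fbp1 was not above the signal floor in either group. It measured 4.75, 4.85, 4.92, 4.91 and 4.78 in HD, against 4.68, 4.83, 4.77, 4.81 and 4.75 in LD. All 10 values were below the floor and below the median negative control row of the same array. The groups overlapped, and the difference of 0.08 ± 0.045 (SE) did not pass the test in a fit without the floor (limma adjusted p = 0.22).

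Most other measured genes of glucose breakdown were lower in HD as well. Of 17 listed genes, 14 were tested, 13 were lower and 0 higher, also with 0 higher at an unadjusted p under 0.05, with a median log2 change of -0.42. Among all genes tested, 19.5% were called lower and 31.4% higher. Gpi1 and Eno1 had no row that carried their symbol alone, and Slc2a3 lay below the floor. The largest decreases were in Aldoc (aldolase C, -2.11 ± 0.075 SE), Pdk1 (the kinase that blocks pyruvate entry into mitochondria, -1.40 ± 0.050 SE) and Eno2 (enolase 2, -1.08 ± 0.060 SE). Placed among the 19 tested genes of both lists, Pfkp had the fourth most negative change, Pfkl the 7th, Pfkfb3 the 11th, Pfkm the 13th and Pfkfb4 the 18th on the deposited scale. With control-row scaling Pfkp, Pfkl and Pfkfb4 kept these places, whereas Pfkm came 15th and Pfkfb3 16th. The member not called in the list, the lactate exporter Slc16a3, differed by 0.08 (limma adjusted p = 0.29) and was named after its value was seen. It was called higher after control-row scaling. The LD mean of Slc16a3 (5.68) lay within the negative control medians of the LD arrays (5.61 to 5.75). Its HD mean (5.76) lay above those of the HD arrays (5.26 to 5.58). On the deposited scale with the floor, Pfkfb4 and Slc16a3 were the 2 of these 19 genes that were not called lower. Hk1 (hexokinase 1, -0.10, limma adjusted p = 0.031) also lost its call in the fit without a floor (adjusted p = 0.054), which left 12 of the 13 decreases.

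**Figure D4:**
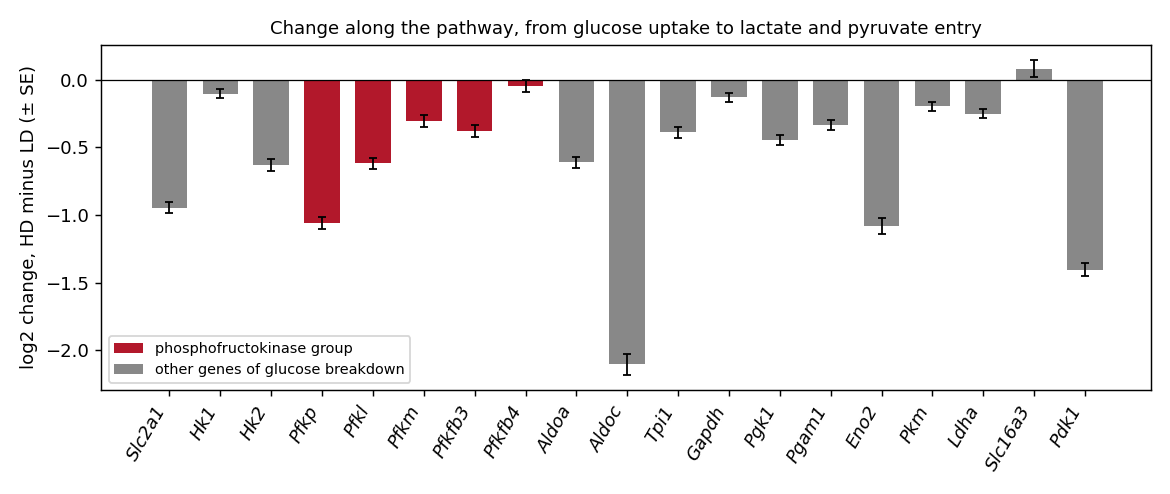
Log2 change (HD minus LD, bars from 0, ± SE) of the tested phosphofructokinase genes (red) and other genes of glucose breakdown (grey), in pathway order with the pyruvate dehydrogenase kinase Pdk1 last. Bars range from -2.11 for Aldoc to 0.08 for Slc16a3, and those of the phosphofructokinase group from -1.06 for Pfkp to -0.05 for Pfkfb4.

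Targets of hypoxia signalling moved in the same direction as the called members. All 16 listed targets were tested and all were called lower in HD, with a median of -1.13 and a range from -2.82 to -0.64. Among all genes tested, 19.5% were called lower. The list was chosen with earlier results of these data known, so its shared direction is a description only. Adm (adrenomedullin), Car9 (carbonic anhydrase IX) and Ankrd37 had the largest decreases, at -2.82, -2.11 and -2.07. The Pfkp change lay inside this range, while the changes of Pfkfb3, Pfkm and Pfkfb4 were closer to 0 than that of any listed target. As deposited, the Pfkl change (-0.62) was slightly smaller than that of the least changed target, Higd1a (-0.64), whereas with control-row scaling its change (-0.74) exceeded those of Higd1a (-0.53) and Mxi1 (-0.67). LD replicate 1, the highest LD array for Pfkp, Pfkl and Pfkfb3, also had the highest LD mean of the 16 targets (9.61, against 9.38 to 9.57 in the other LD arrays). Pfkm, however, was highest in LD replicate 2, and Pfkfb4 was lowest in LD replicate 1. In HD the mean of the targets was highest in replicate 4 (8.18), with replicate 2 almost as high (8.17). Pfkp, Pfkl, Pfkm and Pfkfb4 were highest in HD replicate 2 and Pfkfb3 in HD replicate 3.

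Tigar and 4 of the 5 tested genes of the pentose phosphate branch, which takes sugar phosphates out before this step, were higher in HD. Tigar, a phosphatase that lowers the activator made by the Pfkfb enzymes was 1.35-fold higher (log2 change 0.43 ± 0.053 SE, limma adjusted p = 1.8e-05). Of the 7 genes listed for gluconeogenesis and bypass of the step, 5 were tested, 2 were higher and 1 was lower. Beside Tigar these were Pck1 (0.12), whose LD mean of 5.19 lay below the floor and whose call was lost in the fit without a floor (limma adjusted p = 0.064), and G6pc3, a glucose 6-phosphatase (-0.21). Of 5 tested genes of the pentose phosphate branch, 4 were higher and 0 lower, also with 0 lower at an unadjusted p under 0.05. They were led by Taldo1 (transaldolase, 0.39), and by Rpia (0.22) and Rpe (0.20), both of which interconvert pentose phosphates. Pgd (0.20) was higher too, and Pgls (-0.01) was not called. G6pdx and Tkt were listed but had no row that carried their symbol alone, so the branch was measured only in part. Among all genes tested, 31.4% were called higher.

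Genes for kinases known to phosphorylate phosphofructokinases or Pfkfb enzymes, and for subunits of such kinases, differed by small amounts. Of 11 tested genes, 7 were higher and 2 lower, with a median of 0.17 and a range from -0.20 to 0.28. Akt1 (0.28) and the AMPK subunit Prkag2 (0.22) were among the higher ones, and the AMPK subunit Prkab2 (-0.20) and the protein kinase A subunit Prkacb (-0.12) were the lower ones. As deposited, 31.4% of all genes were called higher and 19.5% lower. After control-row scaling 4 of these 11 genes were higher (Akt2, Prkab1, Prkag1 and Prkag2) and 1 lower (Prkacb), beside 49.4% and 19.1% of all genes. Akt1 (0.08, limma adjusted p = 0.14) and Prkab2 (-0.07, limma adjusted p = 0.22) were among those that lost their call. Among the genes for turnover of these enzymes, Trim21, a ubiquitin ligase that in human cells acts on PFKP, was lower (-0.54 ± 0.051 SE, limma adjusted p = 1.6e-06), as was Btrc, part of a ligase that in human cells acts on PFKFB3 (-0.19), while Fzr1 differed by 0.02 and was not called (limma adjusted p = 0.68). Arrays of RNA give no information on the activity of any of these kinases or ligases.

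The genes that followed each member most closely from array to array were found from deviations from the group means over the 10 arrays, which takes out the difference between HD and LD. Pfkp was followed most closely by Xpnpep2 and Abhd14b (Pearson r = 0.96 for both) and Ttc17 (0.93), and Pfkl by Atp6v0d1 and Chst14 (0.94 for both) and Ssbp3 (0.93). Pfkm was followed by Rnf181 (0.99), Vps16 (0.98) and Tspan14 (0.97), and Pfkfb4 by Lingo3 (0.97), Slc4a2 and Dlx5 (0.93 for both). For Pfkfb3 the closest genes were Chat and Eno2 (0.89 for both) and Lst1 (0.88). These are the highest of 13071 values for each member, all arrays share 1 normalization, and between 0.21% and 2.32% of genes had r above 0.8, so they are given as a description only. Among them Eno2 also belonged to the list of glucose breakdown.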

How the data were processed

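The 10 arrays were analysed. The deposited values are log2 signals. The submitters' processing notes name RMA as the authors' method. RMA equalises probe distributions between arrays and compresses folds. Neither the software nor the genome build was stated there or in the labels. That the scale is log2 was read from the values (1.49 to 14.3). Detection calls and scan dates were not used here, so batches could not be looked for.

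Of 30604 rows with 1 symbol in the platform annotation, 22818 matched RefSeq gene IDs and 827 symbols were updated. Each gene was its row with the highest mean. The HD against LD test used limma 3.58.1 (R 4.3.3) over 17800 genes, two-sided, Benjamini-Hochberg adjusted, threshold 0.05. The fit was tested on simulated data. Isoform pairs were compared by an exact permutation test over 252 splits. Of 9 planned pairs, 5 involved Pfkfb1 or Pfkfb2 and were not run. From each list the 3 called genes with the largest change were named, and any called against its list's majority. Members and lists were chosen with earlier results of these data known.

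Same-numbered HD and LD arrays deviated together with correlations of 0.19, -0.09, -0.04, 0.22 and -0.02, so they were not treated as pairs. Alternatives were a replicate block, other normalizations, floors and variance models, array weights, a 1.5-fold threshold and leaving out each array.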

Additional observations from a re-analysis of the deposited data

Results flagged for a closer look

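No HD or LD group of the 6 members held an array far from the others, but 1 isoform difference did. The Pfkp minus Pfkm difference within LD replicate 1 was 0.15 relative to the LD mean, against -0.02 in the nearest LD array. Without that array Pfkp still fell by more than Pfkm, by 0.72 log2 units (two-sided exact permutation, adjusted p = 0.016).

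Among the other genes, single arrays stood apart from the remaining 4 of their group in 7 cases. They were Slc2a1 in LD replicate 3 (lowest, 11.26), Tigar and Taldo1 in LD replicate 1 (lowest, 6.21 and 7.74) and Prkacb in LD replicate 2 (highest, 9.49). In HD they were Adm in replicate 4 (highest, 6.33), Egln3 in replicate 2 (highest, 9.36) and Cd3e in replicate 3 (highest, 5.58). In all 128 groups of 5 values were looked at and 8 held such an array, where chance gives about 1 in 20.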

How the results depend on the processing

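Pfkp and Pfkl were called lower in all 21 alternatives run, with log2 changes of -1.08 to -1.02 and -0.74 to -0.59. Pfkm (-0.31) and Pfkfb3 (-0.38) were called lower in all but the 1.5-fold threshold, under which 2 members were lower in place of 4. Leaving out 1 array gave -0.33 to -0.28 for Pfkm, -0.40 to -0.35 for Pfkfb3, -0.06 to -0.02 for Pfkfb4 and 4 lower members throughout. Pfkfb4 changed sign after quantile normalization (0.045) and control-row scaling (0.091), uncalled in both. Pfkfb3 and Pfkfb4 were too dim for the floor at the 75th percentile (log2 6.96) and have no value there. No member had a second row, so row choice changed nothing.

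With the replicate block Pfkp, Pfkl, Pfkm and Pfkfb3 stayed called. As 5 pairs, the isoform differences (-0.44, -0.76, -0.31 and -0.33 for Pfkp-Pfkl, Pfkp-Pfkm, Pfkl-Pfkm and Pfkfb3-Pfkfb4) had an adjusted p of 0.062 by exact sign flips, the smallest that 5 pairs allow. Leaving out 1 array gave -0.47 to -0.42, -0.78 to -0.72, -0.33 to -0.28 and -0.36 to -0.29.

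Over all genes, 3467 were lower and 5589 higher, 278 and 138 with the 1.5-fold threshold, and 8785 were higher with control-row scaling. Higher genes made up 61.7% of calls as deposited and 72.1% after quantile normalization or control-row scaling. Without a floor 1 gluconeogenesis gene was higher in place of 2, since Pck1 was not called, and 12 genes of glucose breakdown were lower in place of 13, since Hk1 was not called. Control-row scaling gave 1 higher gene of glucose breakdown, and 4 higher and 1 lower genes of the list of kinases and their subunits. The cause of these differences was not tested.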
